A study of Homo sapiens with 9 samples.

Results

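The genes described here are 10 stress genes of the ATF4 and CHOP axis, chosen by name and found by their symbols among the 61544 genes in the count files. Of these, 4 are transcription factors (ATF4, ATF5, DDIT3 and ATF3), called regulators below, and 6 act downstream (TRIB3, PPP1R15A, CHAC1, DDIT4, SESN2 and GADD45A), called effectors. All 10 had enough reads to be tested, with 165 to 11590 counted reads per library, among 18653 tested genes. When unfolded proteins gather in the endoplasmic reticulum (ER), the ER kinase PERK phosphorylates the initiation factor eIF2α, general translation slows, and the mRNA of ATF4 is translated more efficiently. ATF4 then activates the genes of other factors, among them DDIT3, which encodes CHOP, and ATF3, and together they drive genes of amino acid supply, redox balance, growth arrest and cell death. GRP78, the ER chaperone encoded by HSPA5, binds PERK and the other ER stress sensors and keeps them inactive until unfolded proteins draw it away, so that the ATF4 and CHOP genes are a common readout of ER stress in tumor cells.

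RNA-Seq was performed on H1975 cells, an established human lung adenocarcinoma line. In all 9 libraries endogenous GRP78 had been targeted with si78, an siRNA against the untranslated 3′ end of the HSPA5 mRNA, and the cells were then transfected with a plasmid. The Vector group (3 libraries) received the empty plasmid, the WT group (3 libraries) received F-78(WT), wild-type GRP78 with a FLAG tag, and the NLS Mut group (3 libraries) received F-78(NLS Mut), in which lysines of the nuclear localization signal (NLS) are replaced by alanine. The WT and NLS Mut groups are together called the F-78 groups. WT against NLS Mut addresses what nuclear GRP78 adds, and each of them against Vector addresses what the re-expressed chaperone does. Cells without si78 were not analysed here, transfection was transient, and the counts do not separate plasmid transcripts from those of the endogenous gene. The labels do not say whether replicates came from separate cultures, so the p-values measure the spread between these libraries, which may be technical. In bulk RNA, fewer cells that express a gene and less RNA per cell cannot be told apart.

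Between 17671055 and 27476298 reads were counted on genes per library. Values are CPM, read counts scaled to a common library total, here with TMM scaling of the libraries. Fold changes, standard errors and p-values are from edgeR's quasi-likelihood test, with Benjamini-Hochberg adjustment over all 18653 tested genes, and genes with an adjusted p under 0.05 are those called. HSPA5 was at 359 to 391 CPM in the Vector libraries, at 5031 to 6145 with WT and at 4765 to 5156 with NLS Mut, so both plasmids raised it, by 3.91 and 3.71 on the log2 scale. Between both F-78 groups it differed by 0.19 (adjusted p = 0.079), and the part of this difference in the results below was not tested. The epithelial genes EPCAM and KRT8 were at 185 to 220 and at 1448 to 1745 CPM, NKX2-1, a lung lineage factor, at 21.5 to 31.6 CPM, whereas SFTPC, of alveolar cells, and the leukocyte genes PTPRC, CD3E and LYZ were at or near 0. Vector replicate 1 stood apart from the other Vector libraries. The slope of its log2 ratio to the mean of all libraries, per 10 percentage points of GC content, was -0.05, beside 0.10 and 0.11 in Vector replicates 2 and 3 and -0.07 to 0.03 in the F-78 libraries. The longest transcripts of the 10 genes have a GC content of 46.7% to 62.6%.

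Promoters of the genes were searched for DNA elements that ATF4 and related basic leucine zipper (bZIP) factors bind, and for the E-box. RefSeq promoters (GRCh38.p14) were found for 9 of the 10 genes, all but GADD45A, and the 250 bases before each start were read on both strands. The composite element of ATF4 and C/EBP factors, TGATGNAA, occurred in ATF3 and CHAC1, and in 3.89% of all 27305 genes with a promoter in the table. The full cAMP response element, TGACGTCA, to which ATF and CREB factors bind, occurred in PPP1R15A and in 2.03% of all genes. The AP-1 element TGANTCA occurred in DDIT3 and ATF5 and in 8.06% of genes. The E-box CANNTG, the element of helix-loop-helix factors, occurred in 6 of the 9 genes and in 66.7% of all genes. Per promoter, over 35116 windows, the shares were 3.14%, 1.65%, 6.57% and 61.8%. The 3 windows below hold the less frequent elements of effectors and of ATF3, with the element in capitals. In ATF3 it lies on the strand of the gene, and in CHAC1 it is the reverse complement of the searched letters. The element in PPP1R15A reads the same on both strands. ATF3 has 2 RefSeq promoters, and the composite element occurred in the promoter of the start given below and not in the other. Which start these cells use was not tested. None of these 3 matches overlaps one of another element searched. A match describes the letters only and shows no binding.
ATF3 (chr1:212565205-212565234, 191 bases before the start): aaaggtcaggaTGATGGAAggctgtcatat
CHAC1 (chr15:40953251-40953280, 209 bases before the start): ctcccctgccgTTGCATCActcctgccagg
PPP1R15A (chr19:48872352-48872381, 58 bases before the start): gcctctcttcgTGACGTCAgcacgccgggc

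To compare levels between genes, CPM was divided by the exonic length in kilobases (kb; GENCODE release 29). In the Vector libraries ATF4 was the most abundant of the 10, at 164 ± 7.70 CPM per kb (SD, n = 3), followed by DDIT4 at 114 ± 6.39 and TRIB3 at 108 ± 6.95, and the last pair did not differ beyond their spread. A middle group held DDIT3 at 39.1 ± 2.76 CPM per kb, GADD45A at 35.1 ± 3.72 and PPP1R15A at 31.3 ± 2.64, whose neighbours in that order also lay within their spread. CHAC1 at 10.8 ± 1.12, ATF3 at 10.3 ± 0.55 and SESN2 at 8.83 ± 0.15 CPM per kb came next, and ATF5 was the least abundant, at 4.18 ± 0.92. With WT the top of the order was the same, ATF4 at 150 ± 5.94, DDIT4 at 110 ± 5.10 and TRIB3 at 89.5 ± 2.79 CPM per kb. ATF3 stood at 5.75 ± 0.27 CPM per kb in that group, below SESN2 at 7.24 ± 0.19, whereas in Vector it stood above it. Reads in bases that DDIT3 and ATF5 share with other genes are missing from these levels. On the sum of both strands DDIT3 was at 64.9 ± 3.39 CPM per kb in Vector, apart from GADD45A at 30.6 ± 3.08, while the order of the 10 was the same. With WT ATF5 was at 6.35 ± 0.48 on that sum, above ATF3 at 5.05 ± 0.22, so the last place of ATF5 depends on how shared reads are counted.

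**Figure D1:**
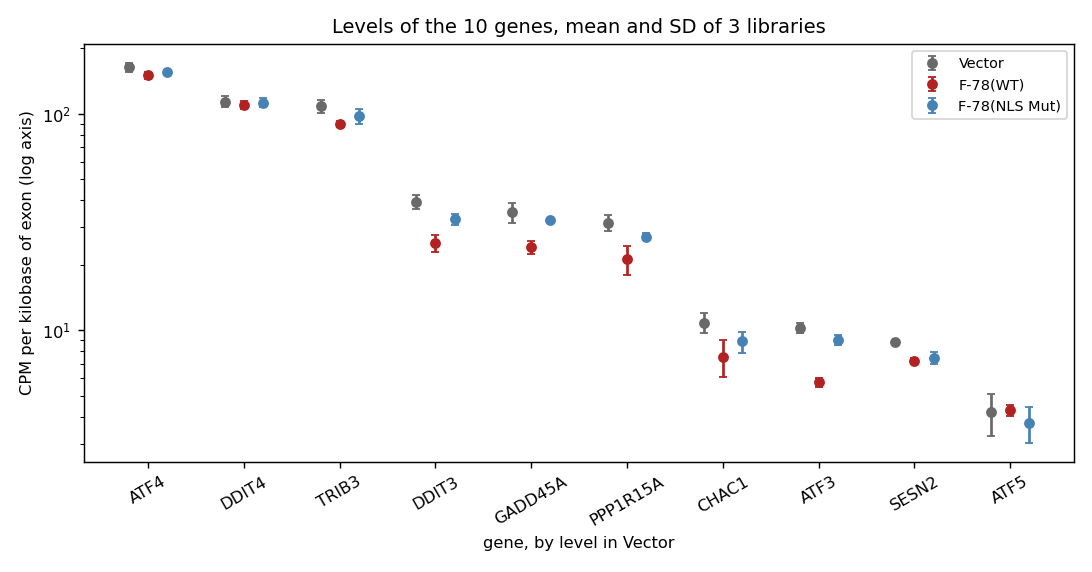
Level of each of the 10 genes in CPM per kilobase of exon (log axis), as mean and SD of the 3 libraries of each group, ordered by the level in Vector. ATF4, DDIT4 and TRIB3 lie near or above 89.5 in every group, and ATF5 lies near 4 in every group, without the reads it shares with NUP62.

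WT and NLS Mut were compared first, because both groups express the chaperone and differ in the NLS. Of the 10 genes, ATF3 and GADD45A were lower with WT, where they fell by 36.3% and by 25.1%, and none was higher. In all, 0.204% of the tested genes were called lower and 0.504% in either direction, against 2 of the 10 genes here. The 10 genes were chosen with results of these libraries known, so the count is not independent evidence. The median log2 fold change was -0.18 over the 10 genes and -0.01 over all tested genes, and that of the 10 became -0.11 without WT replicate 1 and -0.09 without NLS Mut replicate 1. The 3 libraries of WT lay below the 3 of NLS Mut for 4 of the 10 genes (ATF3, GADD45A, DDIT3 and PPP1R15A), as they did for 9.42% of all tested genes.

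ATF3, a bZIP factor induced by many stresses, lies on chromosome 1 (chr1:212565334-212620777, plus strand). It was at 38.9, 43.1 and 42.2 CPM in Vector replicates 1, 2 and 3, at 22.2, 24.3 and 23.2 in the WT replicates and at 34.1, 38.0 and 37.4 in the NLS Mut replicates. The groups did not overlap, and WT stood lowest. ATF3 fell by 0.65 against NLS Mut (standard error 0.10, adjusted p = 0.00035) on the log2 scale, and ranked 9 by p among the tested genes. GADD45A, a growth arrest and DNA repair gene (chr1:67685061-67688338, plus strand), was at 63.8, 75.6 and 78.3 CPM in Vector, at 48.1, 53.7 and 48.1 with WT and at 67.0, 67.7 and 65.7 with NLS Mut. The WT libraries lay below all others, whereas NLS Mut lay within the range of Vector. Against NLS Mut GADD45A fell by 0.42 (standard error 0.08, adjusted p = 0.012, edgeR). ATF3 passed in every alternative tried, while GADD45A missed the threshold without WT replicate 1 or 3 or without any 1 of the NLS Mut replicates, with adjusted p from 0.059 to 0.12.

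DDIT3 and PPP1R15A lay just outside the threshold in this comparison. DDIT3 encodes CHOP, the bZIP factor tied to cell death in lasting ER stress, and lies on the minus strand of chromosome 12 (chr12:57516588-57521737). It was at 49.1, 49.1 and 55.3 CPM in Vector, at 29.9, 35.5 and 33.7 with WT and at 39.8, 44.2 and 43.9 with NLS Mut. The groups did not overlap, and NLS Mut lay between the others. The log2 fold change of WT against NLS Mut was -0.37 (standard error 0.09, adjusted p = 0.061, edgeR). PPP1R15A encodes GADD34, the phosphatase subunit that reverses eIF2α phosphorylation and so closes the feedback loop of the pathway (chr19:48872392-48876057, plus strand). It was at 87.3, 101 and 102 CPM in Vector, at 63.7, 76.8 and 57.1 with WT and at 83.6, 86.7 and 80.3 with NLS Mut. The order was that of DDIT3, again without overlap, and the log2 fold change of WT against NLS Mut was -0.34 (standard error 0.09, adjusted p = 0.061, edgeR). Among 9 alternatives that kept all libraries DDIT3 passed in 6 and PPP1R15A in 5, and with DESeq2 their adjusted p was 0.010 and 0.023. In the 9 fits without 1 library each passed in 2, with adjusted p up to 0.29 for DDIT3 and 0.33 for PPP1R15A (edgeR).

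Reads of DDIT3 are shared with overlapping genes. MARS1, a methionyl-tRNA synthetase gene on the opposite strand, covers 27.2% of the exonic length of DDIT3, and reads on more than 1 gene were not counted by the authors' aligner. The sum of the counts made for each strand, which keeps these reads but also takes in those that MARS1 gives in the shared bases, was 1.84 to 2.29 times the count used. On that sum DDIT3 was at 84.8 ± 4.43 CPM (SD, n = 3) in Vector, 62.4 ± 3.05 with WT and 72.0 ± 1.37 with NLS Mut, and the log2 fold change between both F-78 groups was -0.21 (adjusted p = 0.21, edgeR). MARS1 itself had a log2 fold change of -0.09 in the same comparison (adjusted p = 0.58, edgeR).

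The other 6 genes overlapped between WT and NLS Mut, and none was called. ATF4, the master regulator of the axis (chr22:39519695-39522685, plus strand), was at 391, 414 and 429 CPM in Vector, at 362, 392 and 378 with WT and at 401, 389 and 384 with NLS Mut. The 3 groups overlapped, and the log2 fold change between both F-78 groups was -0.05 with a 95% interval of -0.16 to 0.06 (adjusted p = 0.79, edgeR). The RNA level of ATF4 does not show its translation, which was not measured by these libraries. Of the effectors, TRIB3 had a log2 fold change of -0.12 (95% interval -0.25 to 0.00), CHAC1 of -0.23 (-0.50 to 0.05), SESN2 of -0.05 (-0.25 to 0.16) and DDIT4 of -0.03 (-0.16 to 0.09), with adjusted p from 0.43 to 0.91 (edgeR). ATF5, a bZIP factor that is likewise controlled at translation and is tied to the mitochondrial stress response, was the sole gene above 0, at 0.20 (95% interval -0.13 to 0.53, adjusted p = 0.69). On the sum of both strands this value was -0.0038, and NUP62, on the other strand, covers 21.2% of the exonic length of ATF5 (chr19:49928702-49933935, plus strand), so its direction is uncertain.

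**Figure D2:**
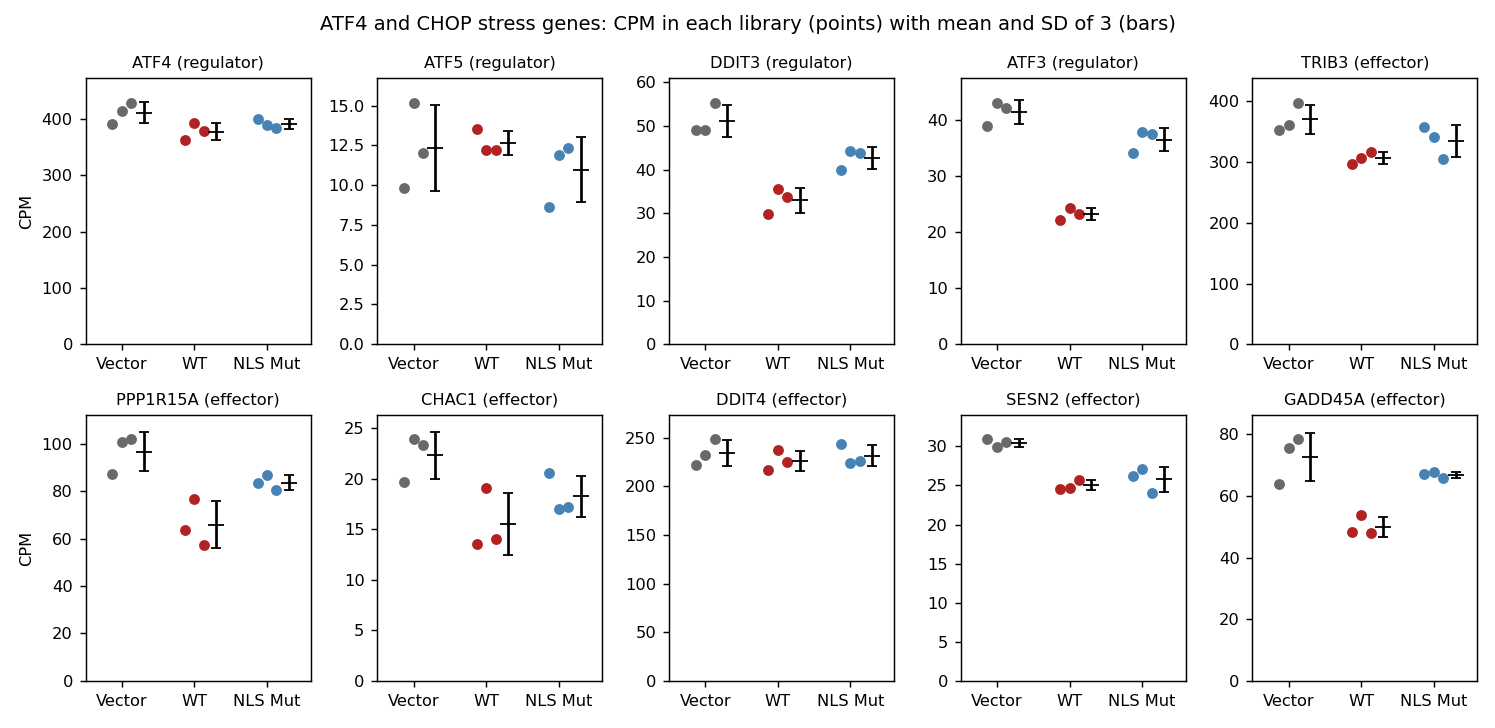
CPM of each of the 10 genes in each of the 9 libraries (points, replicates 1, 2 and 3 from left to right) with the mean and SD of each group of 3 (bars), on axes that start at 0. WT lies lowest without overlap for DDIT3, ATF3, PPP1R15A and GADD45A, whereas ATF4 and DDIT4 overlap in all 3 groups.

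The second comparison, WT against Vector, gave the largest median difference of the 3. Of the 10 genes 5 fell with WT, namely the regulators ATF3 and DDIT3 and the effectors PPP1R15A, GADD45A and TRIB3, and none rose. Among all tested genes 0.343% were called lower and 0.558% in either direction. The median log2 fold change was -0.40 over the 10 genes, -0.38 over the regulators and -0.40 over the effectors, beside -0.002 over all tested genes. All 3 WT libraries lay below all 3 Vector libraries for 7 of the 10 genes, the 5 called genes together with CHAC1 and SESN2, as for 6.54% of the tested genes.

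ATF3 fell by 0.83 (standard error 0.09, adjusted p = 7.9e-06, edgeR), or 43.9%, and ranked 3 by p among the tested genes. DDIT3 fell by 0.63 (standard error 0.09, adjusted p = 0.00033), or 35.4%. PPP1R15A fell by 31.8%, or -0.55 on the log2 scale (standard error 0.09, adjusted p = 0.0010), and GADD45A fell by 31.2%, or -0.54 (standard error 0.08, adjusted p = 0.00068). These 4 genes ranked among the first 11 and passed in every alternative tried, also when any 1 library was left out. On the sum of both strands DDIT3 was lower by a smaller amount, -0.44 (adjusted p = 0.0014), while MARS1 had -0.13 (adjusted p = 0.34).

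TRIB3, a pseudokinase induced by ATF4 and CHOP that damps the activity of both (chr20:362835-397559, plus strand), was at 354, 361 and 398 CPM in Vector, at 298, 308 and 317 with WT and at 359, 341 and 306 with NLS Mut. WT and Vector did not overlap, and NLS Mut spanned the gap between them. TRIB3 fell by 0.27 against Vector (standard error 0.06, adjusted p = 0.032, edgeR). The call was lost with a correction for GC content and length, at -0.16 (adjusted p = 0.13), with only the 2 groups compared (adjusted p = 0.095), and in 6 of the 9 fits without 1 library, with adjusted p up to 0.28 without Vector replicate 3.

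CHAC1, which degrades glutathione (chr15:40952962-40956519, plus strand), was at 19.7, 23.9 and 23.4 CPM in Vector, at 13.6, 19.1 and 14.03 with WT and at 20.6, 17.0 and 17.2 with NLS Mut. WT replicate 2 lay close to the lowest Vector library, and the log2 fold change against Vector was -0.52 (standard error 0.13, adjusted p = 0.068, edgeR). With DESeq2 the adjusted p was 0.029. SESN2, a sestrin that restrains mTORC1 when amino acids run short (chr1:28259527-28282491, plus strand), was at 30.9, 29.9 and 30.6 CPM in Vector, at 24.5, 24.7 and 25.7 with WT and at 26.2, 27.1 and 24.1 with NLS Mut. Both F-78 groups lay below Vector and overlapped each other. The log2 fold change of SESN2 against Vector was -0.29 with WT and -0.24 with NLS Mut, neither past the threshold (adjusted p = 0.21 and 0.30, edgeR).

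DDIT4, or REDD1, another restraint on mTORC1 (chr10:72273920-72276036, plus strand), was at 222, 232 and 248 CPM in Vector, at 216, 237 and 225 with WT and at 244, 224 and 226 with NLS Mut. The groups overlapped throughout, and the log2 fold change relative to Vector was -0.05 with a 95% interval of -0.17 to 0.07. ATF4 had -0.12 (95% interval -0.23 to -0.02, adjusted p = 0.34, edgeR). ATF5 was at 9.79, 15.2 and 12.0 CPM in Vector, at 13.5, 12.2 and 12.2 with WT and at 8.66, 11.9 and 12.4 with NLS Mut. Its groups overlapped, the log2 fold change relative to Vector was 0.03 (95% interval -0.29 to 0.36), and on the sum of both strands it was -0.14. Within both roles some genes passed the threshold and others did not, and the differences between the genes were not themselves tested.

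**Figure D3:**
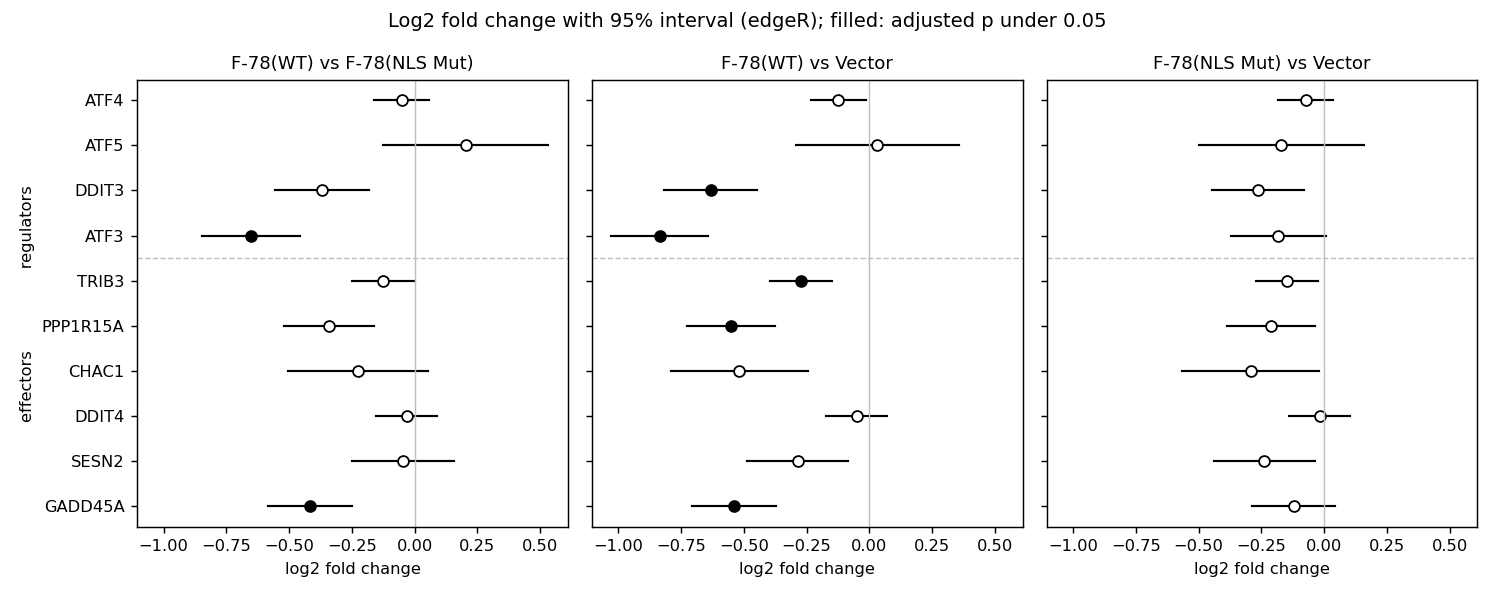
Log2 fold change (edgeR) with its 95% interval for each of the 10 genes in the 3 comparisons, regulators above the dashed line and effectors below it, with filled points at an adjusted p under 0.05. Filled points are ATF3 and GADD45A on the left, these with DDIT3, TRIB3 and PPP1R15A in the middle, and none on the right, where all 10 estimates lie below 0.

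The third comparison, NLS Mut against Vector, shares the Vector libraries with the second. None of the 10 genes was called by edgeR or by DESeq2, and 5 had an unadjusted p under 0.05 (edgeR), as had 12.2% of all tested genes, namely DDIT3, TRIB3, PPP1R15A, CHAC1 and SESN2. Of all tested genes 0.793% were called in either direction and 0.499% lower. All 10 estimates were below 0, as were 50.3% of those of all tested genes, with a median of -0.18 beside -0.002. The lowest was CHAC1 at -0.29 (95% interval -0.56 to -0.02), followed by DDIT3 at -0.26 (-0.45 to -0.08) and SESN2 at -0.24 (-0.44 to -0.04). PPP1R15A had -0.21, ATF3 -0.18, ATF5 -0.17, TRIB3 -0.15, GADD45A -0.12, ATF4 -0.07 and DDIT4 -0.02. The NLS Mut libraries lay below all Vector libraries for 4 genes (DDIT3, ATF3, PPP1R15A and SESN2), as for 8.82% of the tested genes. Without Vector replicate 1, TRIB3 and PPP1R15A passed the threshold (adjusted p = 0.042 and 0.033, edgeR). In that fit 473 of 19857 tested genes were called higher and 529 lower, against 55 and 93 of 18653 with all libraries.

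The correction for GC content and length moved both comparisons with Vector. Under it the median log2 fold change of the 10 genes was -0.28 for WT and -0.09 for NLS Mut, while between both F-78 groups it was -0.17, beside -0.18 without the correction. With the correction ATF4 and DDIT4 turned to 0.02 and 0.09 for NLS Mut against Vector, and DDIT4 to 0.06 for WT. ATF3, DDIT3, PPP1R15A and GADD45A kept their calls for WT against Vector, at -0.85, -0.58, -0.46 and -0.48.

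The genes were also viewed library by library, as the log2 ratio to the mean of the 9 libraries. The median over the 10 genes was 0.08, 0.26 and 0.29 in Vector replicates 1, 2 and 3, -0.26, -0.10 and -0.19 with WT, and 0.05, 0.01 and -0.02 with NLS Mut. For this median over all 10 genes the 3 groups did not overlap, with NLS Mut between the others. Regulators ran from 0.12 to 0.30 in Vector, from -0.30 to -0.12 with WT and from -0.02 to 0.07 with NLS Mut. Effectors ran from 0.08 to 0.29, from -0.26 to -0.10 and from -0.06 to 0.09 in the same groups, so for effectors NLS Mut replicate 1 stood level with Vector replicate 1 and these groups overlapped, whereas for regulators the 3 groups did not overlap. Within every group the ranges of the roles overlapped. The median of all tested genes stayed between 0.002 and 0.016 in every library.

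**Figure D4:**
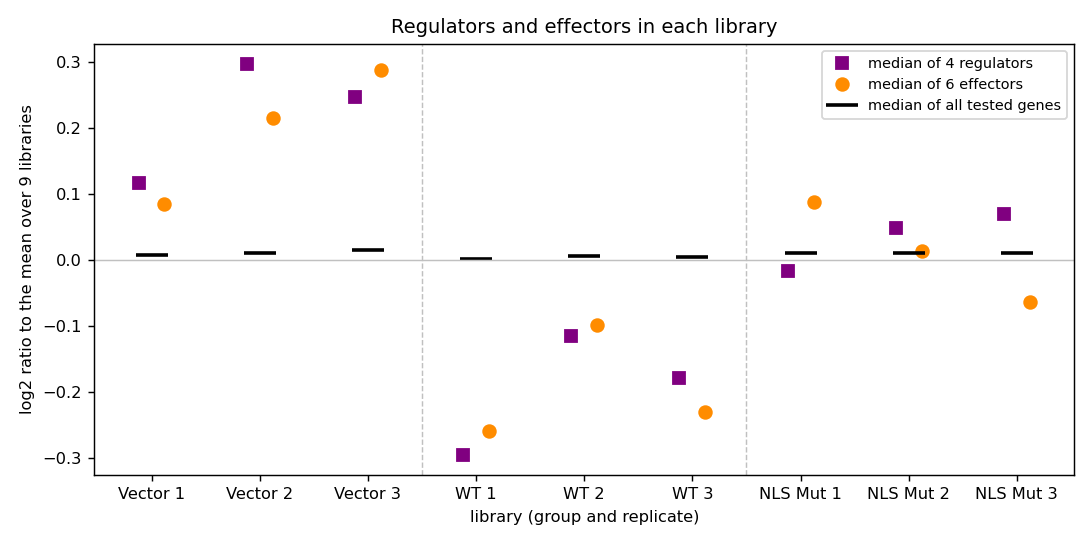
Median log2 ratio to the mean of the 9 libraries for the 4 regulators (squares), the 6 effectors (circles) and all tested genes (bars), by group and replicate. Regulators and effectors lie at or above 0.08 in every Vector library and below -0.09 in every WT library. Regulators of NLS Mut lie between the other groups, whereas the effectors of NLS Mut replicate 1 reach the level of Vector replicate 1.

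Individual genes kept to this shared pattern to different degrees. After each gene was standardized over the 9 libraries, the root mean square (RMS) difference from the mean pattern of the 10 was lowest for ATF4 (0.29), PPP1R15A (0.30) and GADD45A (0.31). It was 0.34 for CHAC1, 0.35 for DDIT3, 0.43 for TRIB3, 0.45 for ATF3 and 0.60 for SESN2, and highest for DDIT4 (0.80) and ATF5 (1.35). The mean pattern includes each gene itself, so these values are a description. ATF4 thus had the pattern of the group with small steps, from 411 ± 19.4 CPM (SD, n = 3) in Vector to 377 ± 14.9 with WT and 391 ± 8.51 with NLS Mut. These steps depend on the processing. Among the alternatives that kept all libraries, the log2 fold change of ATF4 against Vector ran from -0.15 to -0.04 for WT and from -0.10 to 0.02 for NLS Mut. Among 15035 other genes whose mean reached 1 CPM, those nearest to the mean pattern over the 9 libraries were ATAD3B, NFE2L1, RELB, UBALD1 and AURKAIP1, with RMS differences from 0.21 to 0.24. RELB, a subunit of NF-κB, was at 28.6 ± 2.93 CPM (SD, n = 3) in Vector, 19.3 ± 2.09 with WT and 23.6 ± 1.83 with NLS Mut, and NFE2L1, a bZIP factor of the proteasome genes, was at 285 ± 16.3, 243 ± 11.1 and 261 ± 9.14 CPM.

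The rest of the pathway was counted over 7 lists with 112 genes, of which 109 were tested (not FGF21, RAB39B and DDIT4L). Between WT and NLS Mut 2 of the 109 were called, or 1.83%, beside 0.504% of all tested genes, and both were lower with WT. They were SLC3A2, the heavy chain of amino acid transporters, at -0.35 (adjusted p = 0.0055, edgeR), and STC2, a secreted glycoprotein induced by ER stress, at -0.29 (adjusted p = 0.047). Without 1 library SLC3A2 lost this call in 3 of the 9 fits and STC2 in 7. Against Vector 6 genes fell with WT and 1 rose, together 6.42% of the 109 beside 0.558% of all tested genes, while with NLS Mut 1 rose, or 0.92%, which is near the 0.793% of all tested genes. Leaving out 1 library moved these counts from 2 to between 0 and 9, from 7 to between 1 and 28 and from 1 to between 0 and 18, each time with the highest count without Vector replicate 1. Calls over all tested genes also rose without that library. Between both F-78 groups they went from 56 higher and 38 lower to 203 and 185. For WT against Vector they went from 40 and 64 to 526 and 730, and for NLS Mut from 55 and 93 to 473 and 529.

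None of the 16 genes listed around eIF2α was called in any comparison by edgeR. They are the genes of its kinases, of eIF2α, of its exchange factor and of phosphatase subunits, together with DNAJC3 and QRICH1. The phosphatase subunit gene PPP1R15A is not in this list, since it is among the 10 genes. The number at an unadjusted p under 0.05 was 0 between both F-78 groups, 1 for WT against Vector and 3 for NLS Mut against Vector, and DESeq2 called 0, 0 and 1. Among all tested genes the share at an unadjusted p under 0.05 was 11.6%, 11.7% and 12.2% in the same order of comparisons. Their median log2 fold changes were -0.04, 0.03 and 0.04. Of 25 bZIP partners and relatives, JUN, an AP-1 subunit, fell with WT against Vector, from 176 ± 21.3 to 139 ± 6.37 CPM (SD, n = 3; log2 fold change -0.34, adjusted p = 0.020, edgeR). Of these 25, 2, 9 and 6 had an unadjusted p under 0.05 (edgeR) in the same order of comparisons, and DESeq2 called 0, 3 and 0. None of the 7 tested paralogs of the 10 genes was called by edgeR or DESeq2 in any comparison, and 1, 1 and 0 had an unadjusted p under 0.05.

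Among the targets of ATF4 that supply amino acids (19 genes), the transporter subunits SLC7A5 and SLC3A2 fell with WT against Vector, by 0.22 and 0.27 on the log2 scale (adjusted p = 0.038 and 0.046, edgeR). Both form the LAT1 carrier of large neutral amino acids. Both calls were lost with the sum of both strands, with only the 2 groups compared and in 7 of the 9 fits without 1 library, and with the correction for GC content and length SLC7A5 was at -0.11 (adjusted p = 0.21, edgeR). The list had a median of -0.12 between both F-78 groups, where 16 of 19 estimates were below 0, of -0.13 for WT against Vector and of 0.02 for NLS Mut against Vector. Of 17 tested further ATF4 targets, STC2 (-0.33), GDF15 (-0.43), a stress cytokine, and HERPUD1 (-0.27), of ER-associated degradation, fell with WT against Vector (adjusted p = 0.019, 0.0098 and 0.017, edgeR). These 3 and JUN lost the call with only the 2 groups compared and in 4 of the 9 fits without 1 library, and GDF15 was at -0.27 with the correction for GC content and length. Of 10 targets of CHOP in cell death and oxidation, CAV1, the caveolin of plasma membrane pits, was the one gene called by edgeR. CAV1 rose against Vector by 0.29 with WT and by 0.22 with NLS Mut (adjusted p = 0.0020 and 0.021, edgeR), from 532 ± 21.2 CPM in Vector to 652 ± 7.49 and 620 ± 4.73 (SD, n = 3), and the call with NLS Mut was lost in 5 of the 9 fits without 1 library. BBC3, which encodes the cell death factor PUMA, was called lower with WT against Vector by DESeq2 (adjusted p = 0.014) but not by edgeR, where its log2 fold change was -0.55 (adjusted p = 0.053). None of the 15 genes in the list of p53 targets was called by edgeR or DESeq2 in any comparison. Of these 15, 0, 5 and 3 had an unadjusted p under 0.05 (edgeR), beside 11.6%, 11.7% and 12.2% of all tested genes. GADD45A is itself also a p53 target, and whether p53 had a part in its result was not tested.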

How the data were processed

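The authors deposited for each of the 9 libraries the raw read counts per gene in the layout of the STAR aligner, not normalized. The submitters' processing notes name STAR 2.7.9a, DESeq2 1.36.0 and GRCh38.p14, and the annotation release and the test are not given in the sources used here. The unstranded column was analysed, since 50.6% to 51.9% of the reads lay on the forward strand. The 4 summary lines, 27.6% to 30.7% of the reads, were left out. Coordinates, lengths and GC content are from GENCODE release 29 (GRCh38).

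Counts were filtered with filterByExpr, scaled by TMM and fitted over all 9 libraries with edgeR 4.0.16 (glmQLFit, glmQLFTest) in R 4.3.3, 1 coefficient per group, with Benjamini-Hochberg adjustment. Standard errors are the log2 fold change over the square root of the F statistic. DESeq2 1.42.0, its size factors, library size alone, 2 other filters, the replicate number as a block, a loess correction for GC content and length, the sum of both strands, only the 2 groups compared and leaving out each library were alternatives. Replicates of a group differed by more than sampling noise (chi-square 3.51 to 12.3 per degree of freedom). The median biological coefficient of variation was 11.2%, and an exact permutation test of 3 against 3 cannot go below 0.10. The procedures were tested on simulated data.

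The 10 genes, the pathway lists and the tests were chosen with earlier results of these data known. Named beside the 10 are HSPA5, up to 6 called genes per list by adjusted p, and the 5 genes nearest in pattern. Genes named for an overlap and markers are named beside these.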

Additional observations from a re-analysis of the deposited data

How the results depend on the processing

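The number of the 10 genes called between WT and NLS Mut was 2 and became 4 (DDIT3, ATF3, PPP1R15A and GADD45A) with DESeq2, with no filter, with the replicate block, with the correction for GC content and length and with only the 2 groups compared. Over all tested genes, 56 were called higher and 38 lower in the main fit. These became 175 and 141 with DESeq2, 125 and 100 of 35836 genes with no filter, and 110 and 102 with the block. The correction gave 212 and 254 of 18187 genes, and the 2 groups alone gave 176 and 139 of 17524. The count of the 10 genes was 1 to 4 when 1 library was left out, and ATF3 was called each time. In those fits 20 to 203 of all tested genes were called higher and 7 to 185 lower. Against Vector the count was 5 for WT, 4 to 6 under the alternatives that kept all libraries and 4 to 7 without 1 library. Over all tested genes, 40 were called higher and 64 lower for WT, and 526 and 730 of 19857 without Vector replicate 1. For NLS Mut the count of the 10 genes was 0, and 0 to 2 without 1 library. Among the alternatives that kept all libraries, the median log2 fold change moved by more than the spread between replicates with the correction for GC content and length, to -0.28 for WT and -0.087 for NLS Mut against Vector. Without 1 library it ran from -0.26 to -0.094 between both F-78 groups, from -0.45 to -0.35 for WT and from -0.23 to -0.16 for NLS Mut against Vector. Deviations of samples with the same replicate number had correlations of -0.03 to 0.11 over 9 pairs. Over 18 pairs with different numbers they were -0.11 to 0.07. These ranges overlap, and with so few libraries they cannot decide whether samples pair. The replicate block gave 4, 6 and 0 calls among the 10 genes in the 3 comparisons. Over all tested genes the block called 78 higher and 154 lower for WT, and 91 and 139 for NLS Mut, against Vector.

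Of the pathway lists, 2 genes were called between both F-78 groups, and 5 with DESeq2, 1 with DESeq2 size factors, 4 with no filter, 5 with the replicate block, 11 with the correction for GC content and length, 1 with the sum of both strands, 6 with only the 2 groups compared and 0 to 9 without 1 library. For WT against Vector the 7 became 12 with DESeq2, 12 with library size alone, 16 with no filter, 12 with the replicate block, 1 with only the 2 groups compared and 1 to 28 without 1 library. For NLS Mut against Vector the 1 became 3 with DESeq2, 2 with no filter, 2 with the replicate block, 4 with the correction and 0 to 18 without 1 library. Calls over all tested genes moved too. Between both F-78 groups 212 were higher and 254 lower with the correction, beside 56 and 38 in the main fit. For WT against Vector 78 and 211 were called with no filter and 8 and 18 with only the 2 groups, beside 40 and 64. For NLS Mut against Vector DESeq2 called 226 and 204, beside 55 and 93.

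Only values that were not called changed sign. ATF5 turned to -0.0038 between both F-78 groups and to -0.14 for WT against Vector with the sum of both strands, and without 1 library it ran from -0.11 to 0.21 for WT and from -0.32 to 0.0035 for NLS Mut against Vector. DDIT4 ran from -0.060 to 0.016 between both F-78 groups and from -0.063 to 0.019 for NLS Mut against Vector without 1 library, and the correction for GC content and length gave 0.061 for WT and 0.089 for NLS Mut against Vector. The correction gave 0.018 for ATF4 and 0.093 for SLC7A5, both for NLS Mut against Vector, where SLC7A5 was 0.0051 with the sum of both strands and -0.071 to 0.024 without 1 library. The causes of these changes were not tested. ATF5 had the fewest reads of the 10, 165 to 420 per library, and the widest intervals, and the parts of depth, of the overlap with NUP62 and of the spread between libraries in its result were not tested.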
